A study of Mus musculus with 38 samples.

Results

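The 37 genes of the mouse mitochondrial genome were followed across 38 poly(A)-selected RNA-seq libraries in 18 groups. They were taken as every gene whose symbol begins with mt-, which gave 37 of the 55487 genes in the count tables: 13 protein-coding genes, 2 ribosomal RNA (rRNA) genes and 22 transfer RNA (tRNA) genes. The cells were BV2, an immortalised murine microglial line; GL261, a murine glioma line that here stably carried pEGFP-N1; and BMDM, primary bone marrow-derived macrophages from wild-type mice. Each was kept for 16 h at 21% O2 (normoxia) or below 0.1% O2 (hypoxia), alone or in direct co-culture of GL261 with BV2 or with BMDM. In a separate experiment, BV2 and BMDM received the solvent DMSO in normoxia or hypoxia, or 10 nM panobinostat, a histone deacetylase inhibitor, in hypoxia only. All cells were fixed with glyoxal before RNA isolation. There were 3 libraries per group for BMDM from co-culture and 2 per group otherwise. How co-cultured cells were separated is not given in the sources used here.

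The mitochondrial genome is a compact circle that encodes subunits of the respiratory chain and of the ATP synthase, together with the rRNAs and tRNAs needed to translate them. Both strands are transcribed into long precursors, and the tRNAs lying between the longer genes are excised to release the mature RNAs. The RNAs of one strand therefore share a precursor, and their separate levels also depend on processing and stability. Most mitochondrial mRNAs end in a short poly(A) tail, whereas mature tRNAs do not, so poly(A) selection recovers the members unequally, and a change in amount and a change in tail cannot be told apart here.

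Of the members, 28 lie on the plus strand of the annotation (12 mRNAs, both rRNAs and 14 tRNAs), called the heavy-strand set below. The other 9, mt-Nd6 and 8 tRNAs, form the light-strand set. A pair of sequence features limits how single members can be read, so the stretches that show them are given first, from GENCODE M21 transcripts on mm10. The first is nuclear copies of mitochondrial sequence. In mt-Nd4, a complex I subunit, bases 1 to 876 recur without a mismatch in the pseudogene Gm28439 on chromosome 1, and the capitals mark where mt-Nd4 runs on alone (chrM:11013-11072, plus strand). In mt-Co1, the catalytic subunit of cytochrome c oxidase, the capitals mark the bases before the stretch identical in its copy Gm29216 (chrM:6364-6423, plus strand). That copy itself aligns from base 1054 of mt-Co1 on, so the last capitals lie within it, and all 6 mismatches fall among them. The first 60 bases of mt-Co2, another cytochrome c oxidase subunit (chrM:7013-7072, plus strand), and of its copy Gm28661 (chr1:24615506-24615565, minus strand) are the same.
mt-Nd4: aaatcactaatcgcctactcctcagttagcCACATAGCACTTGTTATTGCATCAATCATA
mt-Co1: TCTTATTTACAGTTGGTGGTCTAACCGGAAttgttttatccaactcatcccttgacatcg
mt-Co2: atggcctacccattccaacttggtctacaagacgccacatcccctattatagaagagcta
Gm28661: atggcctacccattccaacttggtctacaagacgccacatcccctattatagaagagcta

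The second feature is overlap between genes. The light-strand gene mt-Nd6, also a complex I subunit, ends inside the end of the heavy-strand gene mt-Nd5. The capitals mark the 14 bases that both genes cover, mt-Nd5 on the plus strand (chrM:13536-13565) and mt-Nd6 on the minus strand (chrM:13552-13581). The strand setting of the authors' counting is not given in the sources used here, so mt-Nd6 reads and reads antisense to its neighbours cannot be told apart. The tRNAs mt-Tt (threonine, chrM:15289-15355, plus strand) and mt-Tp (proline, chrM:15356-15422, minus strand) abut each other, and mt-Tt begins at the base after mt-Cytb. The tryptophan tRNA mt-Tw (chrM:4950-5016, plus strand) overlaps the end of mt-Nd2 by 2 bases. These tRNAs are shown because they are the only ones that passed the filter on low counts in a fit of a single cell type.
mt-Nd5: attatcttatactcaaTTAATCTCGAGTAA
mt-Nd6: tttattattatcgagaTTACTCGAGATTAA
mt-Tt: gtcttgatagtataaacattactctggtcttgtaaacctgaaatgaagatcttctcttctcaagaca
mt-Tp: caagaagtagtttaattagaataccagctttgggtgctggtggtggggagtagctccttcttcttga
mt-Tw: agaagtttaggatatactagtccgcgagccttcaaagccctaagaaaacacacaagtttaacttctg

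The copies set which members can be measured. Cut into words of 75 bases, mt-Co2 and mt-Atp6 each shared 99.51% of their words with 1 nuclear gene, mt-Co3 99.86%, mt-Nd4l 98.65% and mt-Nd3 97.81%, whereas mt-Nd4 shared 61.5% and mt-Co1 39.84%. The share was 5.705% for mt-Nd2 and 1.657% for mt-Nd5. mt-Nd1, mt-Cytb, mt-Nd6, mt-Rnr1, mt-Rnr2 and mt-Atp8 shared no word with any annotated transcript. The counts followed the same division. In normoxic BV2 monoculture mt-Co1 held 126366 to 170404 counts, and its copies Gm29216 and Gm13340 held 122 to 124 and 808 to 1024. By contrast, mt-Co2 held 233 to 337, and its copies Gm28661 and Gm13341 held 152 to 248 and 256 to 424. mt-Atp6, an ATP synthase subunit, held fewer counts (137 to 201) than its copy Gm10925 (251 to 306). Values of mt-Co2, mt-Co3, mt-Atp6, mt-Nd3 and mt-Nd4l are therefore uncertain throughout, since their reads could be split with a copy or left uncounted.

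Total counts ranged from 9634700 to 27238933 per library, and mitochondrial genes held 0.367 to 4.25% of them. mt-Nd1, mt-Nd2, mt-Co1, mt-Nd4, mt-Nd5 and mt-Cytb together held 79.9 to 95.6% of the mitochondrial counts and the rRNAs 3.2 to 19%. All 9 macrophage markers exceeded 3 counts in every BV2 and BMDM library, and all 8 glioma markers did so in every GL261 library. The glioma markers also all did so in every BV2 and BMDM co-culture library, summing to 17.7 to 46.7 and 140 to 264 CPM. They summed to 148 to 282 CPM in BMDM monoculture and 1659 to 2695 CPM in GL261 co-culture. In GL261 co-culture 5 to 7 macrophage markers exceeded 3 counts, so passing 3 counts does not by itself tell the cells apart. In none of 22 replicate pairs were the counts the same within sampling noise. The BV2, GL261 and co-culture labels of the first experiment call the replicates biological. For the BMDM and panobinostat libraries nothing says that cultures or animals were separate, so p-values there measure only the spread between these libraries.

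Not all members were measurable. 17 of 37 passed the filter in BV2 and in GL261 (12 mRNAs, both rRNAs and 3 tRNAs), 13 in the BMDM co-culture experiment and 12 in each cell type of the panobinostat experiment. mt-Atp8 held 0 to 5 counts in any library and never passed. Of the 22 tRNAs, 11 had no count in any library, 4 (mt-Tq, mt-Tw, mt-Tt and mt-Tp) reached 10 counts in at least 1 library, and the rest held at most 8.

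**Figure D1:**
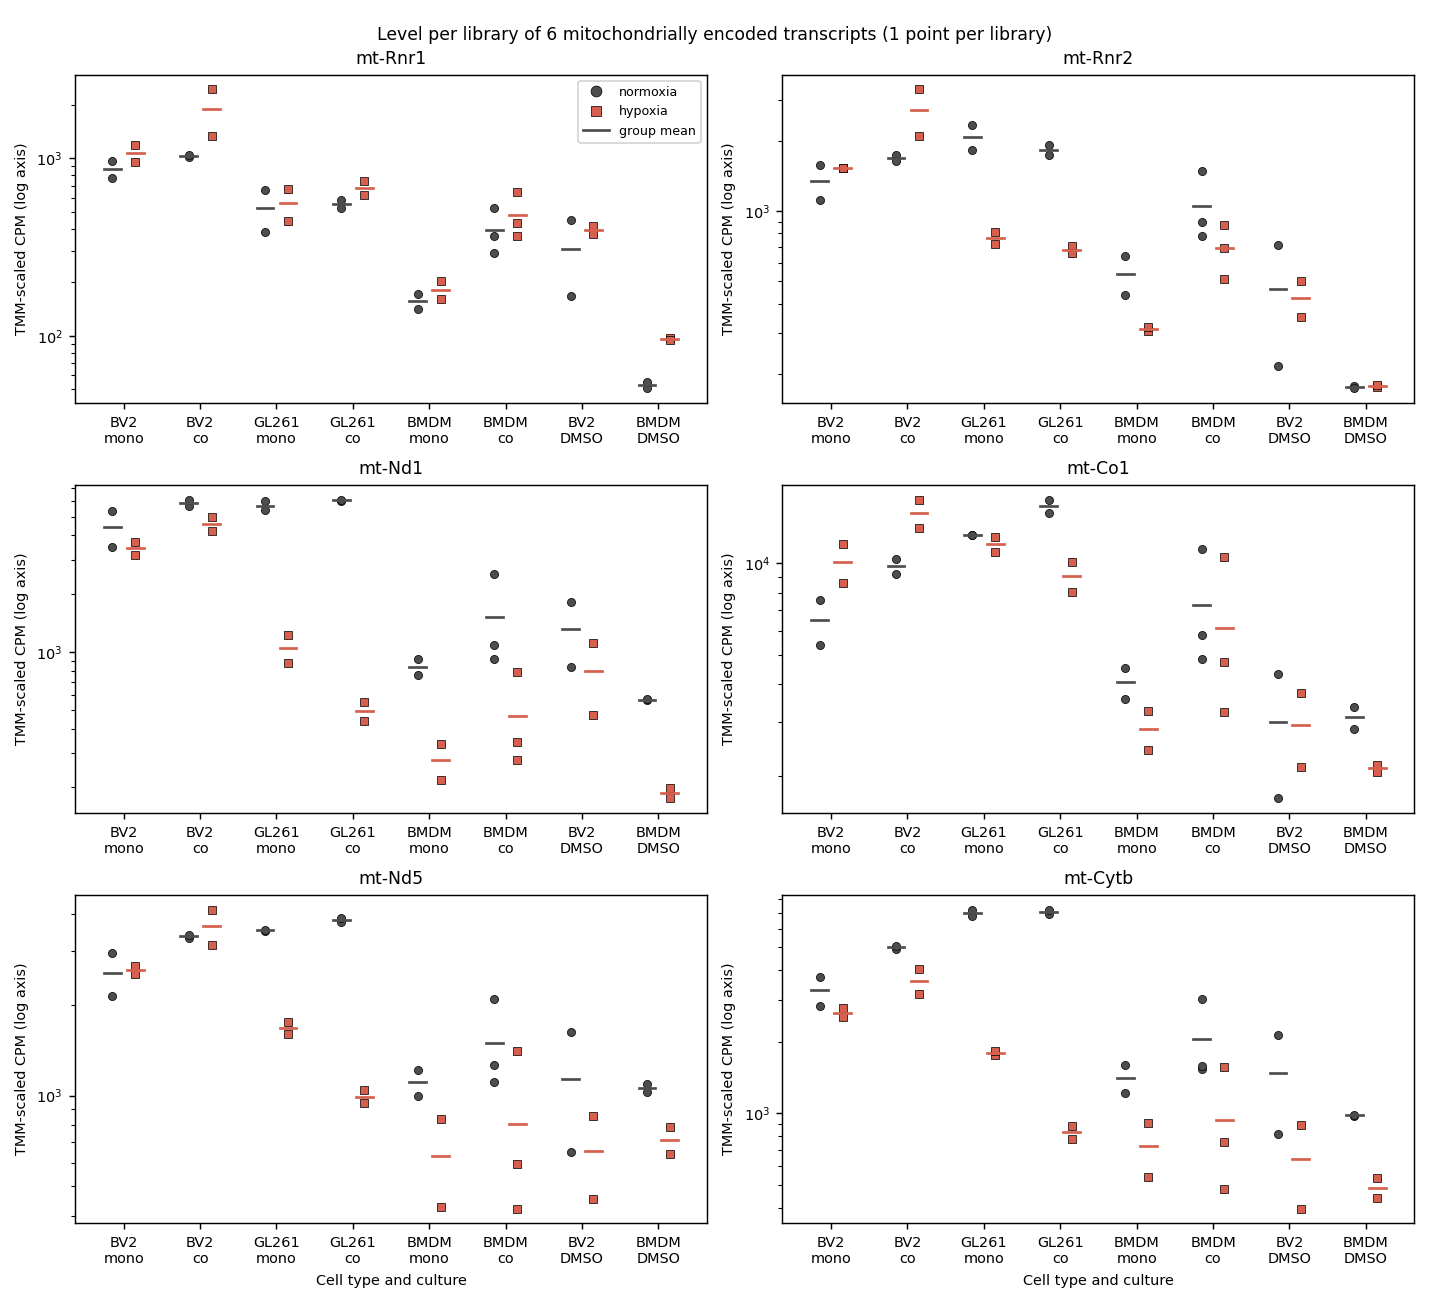
Level of mt-Rnr1, mt-Rnr2, mt-Nd1, mt-Co1, mt-Nd5 and mt-Cytb in each library (points), with the group mean (line), in CPM after TMM scaling on a log axis, in normoxia and hypoxia for 8 cultures. In GL261 the hypoxic points of mt-Nd1 (440.1 to 1217 CPM) and mt-Cytb (775 to 1833 CPM) lie far below the normoxic ones, while those of mt-Co1 lie at 8029.7 to 12196 CPM.

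Levels were first set side by side within normoxic monocultures, per kilobase of full transcript length. The unit was CPM, counts scaled to a common library total after TMM scaling. Copies shared 39.84% of the words of mt-Co1 and 61.5% of those of mt-Nd4. Reads of these stretches could be left uncounted, so values of both genes could be too low and their place in the order is uncertain. In BV2, mt-Nd1 (4603 ± 1366, SD, n = 2) and mt-Co1 (4196 ± 1016) stood highest, and mt-Nd6 stood at 301. The spreads between libraries overlapped, but mt-Nd1 was above mt-Co1 within both libraries, though mt-Co1 could be too low. In GL261 mt-Co1 led (7996 ± 1.45), ahead of mt-Cytb (6098 ± 255) and mt-Nd1 (5964 ± 434), whose order differed between the libraries. In BMDM mt-Co1 (2625 ± 425) stood above mt-Cytb (1227) and mt-Nd1 (878). In this poly(A)-selected RNA both rRNAs stood below mt-Nd1, mt-Co1, mt-Cytb, mt-Nd2 and mt-Nd5 in each cell type. mt-Rnr1, the small-subunit rRNA, stood at 911, 548 and 164 CPM per kilobase in BV2, GL261 and BMDM. mt-Rnr2, the large-subunit rRNA, stood at 848, 1318 and 339. Each cell type was scaled in its own fit, and the BMDM counts were deposited apart from those of BV2 and GL261. BMDM values therefore cannot be read as a difference between cell types. In the separate experiment, normoxic BV2 with DMSO had mt-Rnr1 at 471 and 176 CPM per kilobase.

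The level of each member was then tested between cell types with edgeR's quasi-likelihood test and Benjamini-Hochberg adjustment over all genes tested, the test used for every adjusted p given here. Between normoxic BV2 and GL261 monocultures 1 member was higher in BV2 and 7 were lower, where 33.8% of all genes tested were higher, 39.4% lower and 73.2% called in all. mt-Cytb, the mitochondrial subunit of complex III, was lower in BV2 by a log2 difference of -0.97 ± 0.16 (SE, adjusted p = 2.27e-05) and mt-Nd6 by -0.98 ± 0.21 (adjusted p = 0.000357). mt-Rnr1 was higher in BV2, by 0.85 ± 0.26 (adjusted p = 0.007). 5 members were called without BV2 normoxia replicate 1 or without GL261 normoxia replicate 2. Between BV2 and BMDM with DMSO in normoxia, 2 members were called against 44.2% of all genes (17.1% higher), both higher in BV2, whose medium held less serum than that of BMDM: mt-Rnr1 by 2.37 ± 0.40 (adjusted p = 0.00107) and mt-Nd2 by 1.19 ± 0.41 (adjusted p = 0.0377). That count was 1 without BV2 DMSO normoxia replicate 1 or either BMDM DMSO normoxia library, and 5 without BV2 DMSO normoxia replicate 2.

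Hypoxia gave its broadest change among the members in GL261. In monoculture 13 of the 17 members tested fell and none rose, where 21.4% of all genes tested fell and 44.6% were called in either direction. The median log2 difference was -1.82 over the members and -0.03 over all genes. Among the mRNAs, the largest called falls were in complex I subunits. In bulk libraries such as these, fewer cells of a type and less RNA per cell cannot be told apart.

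Among the complex I subunits, mt-Nd4 stood at 2466 and 2454 CPM in the normoxic GL261 libraries and at 405 and 328 CPM in the hypoxic ones. Its log2 difference was -2.75 ± 0.16 (SE, adjusted p = 7.28e-07), a 6.71-fold fall. mt-Nd1, which shares no word with a nuclear copy, stood at 6002 and 5414 CPM in normoxia and 1217 and 880.1 CPM in hypoxia. It fell by 2.44 ± 0.20 on the log2 scale (adjusted p = 6.99e-06). The hypoxic libraries lay below both normoxic ones for each gene. mt-Nd2 went from 3583 and 3744 CPM to 919 and 749 CPM, a log2 difference of -2.14 ± 0.16 (adjusted p = 4.25e-06). mt-Nd5, which lies further along the same strand, went from 3513 and 3527 CPM to 1754 and 1601 CPM, a smaller difference of -1.07 ± 0.14 (adjusted p = 0.000163). mt-Nd3 was called lower at -2.33, from 13 and 10 counts to 1 and 4, and mt-Nd4l at -2.49, from 36 and 17 counts to 9 and 2. Those calls were lost when 1 library was left out: mt-Nd3 stood at -1.42 (adjusted p = 0.213) without hypoxia replicate 1 and mt-Nd4l at -1.89 (adjusted p = 0.0852) without normoxia replicate 1.

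The complex III subunit mt-Cytb stood at 6769.9 and 7182 CPM in normoxic GL261 and at 1761 and 1833 CPM in hypoxic GL261, with a log2 difference of -1.96 ± 0.15 (adjusted p = 6.37e-06). For mt-Co1 the picture was different. It stood at 12352 and 12355 CPM in normoxia and 10846 and 12196 CPM in hypoxia, and its log2 difference of -0.10 ± 0.17 did not pass the test (adjusted p = 0.66). The normoxic libraries were both above the hypoxic ones, but the gap was small beside that of mt-Nd1. mt-Co2 (-0.28) was not called. The other cytochrome c oxidase subunit, mt-Co3, went from 10.1 CPM in both normoxic libraries to 7.59 and 5.14 CPM and was called (-0.66 ± 0.22, adjusted p = 0.0303), and stood at -0.40 (adjusted p = 0.168) without hypoxia replicate 2. mt-Atp6 went from 11.3 and 10.4 CPM to 6.64 and 5.14 CPM (-0.87 ± 0.21, adjusted p = 0.00542).

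The rRNAs, next to each other on the heavy strand, moved unequally. mt-Rnr2 went from 2351 and 1819.6 CPM to 719.6 and 811 CPM, a log2 difference of -1.45 ± 0.16 (adjusted p = 5.57e-05), whereas mt-Rnr1 stood at 662 and 385 CPM in normoxia and 441 and 671 CPM in hypoxia, with overlapping groups and a log2 difference of 0.09. On the light strand, mt-Nd6 stood at 349 and 321 CPM against 239 and 298 CPM and was not called (-0.32, adjusted p = 0.0838). The tRNA mt-Tp held 41 and 23 counts in normoxia and 0 in both hypoxic libraries. Set against a floor of 3 counts per library, it was at least 12.3-fold lower. mt-Tw held 42 and 30 counts against 16 and 8, and mt-Tt 23 and 22 against 2 and 4, and both were called lower (-1.82, adjusted p = 0.00373, and -3.05, adjusted p = 0.00309).

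The nuclear copies in the same libraries were read beside their members. In GL261 monoculture hypoxia Gm28439, the copy of mt-Nd4, was lower by a log2 difference of -2.54 ± 0.27 (adjusted p = 4.03e-05), from counts of 125 to 143 in normoxia where mt-Nd4 held 45993 to 48210. Gm29216, a copy of part of mt-Co1, was not called (0.06, adjusted p = 0.832). Gm10925, the copy of mt-Atp6, was lower by -1.04 ± 0.23 (adjusted p = 0.00345). The members of these copies, mt-Nd4, mt-Co1 and mt-Atp6, stood at -2.75, -0.10 and -0.87, whereas Gm28438 (-0.25, adjusted p = 0.548) lay far from mt-Nd3 (-2.33). These examples were chosen after their values were seen, and how many reads of a copy came from the mitochondrial RNA was not tested.

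GL261 cells from co-culture with BV2 were compared in the same way: 15 of 17 members fell in hypoxia and none rose, where 25.6% of all genes tested fell and 52.4% were called. mt-Nd4 stood at 2357 and 2406 CPM in normoxia and 171 and 179 CPM in hypoxia, a log2 difference of -3.77 ± 0.16 (adjusted p = 9.97e-08). mt-Nd1 stood at 6059.5 and 6127 CPM against 552 and 440.1 CPM, a difference of -3.62 ± 0.21 (adjusted p = 4.69e-07). mt-Cytb stood at 6913 and 7202 CPM against 775 and 884 CPM, a difference of -3.09 ± 0.16 (adjusted p = 2.69e-07). The falls were 13.6-fold for mt-Nd4, 12.3-fold for mt-Nd1 and 8.51-fold for mt-Cytb. mt-Nd2 went from 3386 and 3665 CPM to 425 and 400.3 CPM (-3.09) and mt-Nd5 from 3747 and 3865 CPM to 1039 and 945 CPM (-1.94). mt-Nd4l held 20 and 23 counts against 1 and 0 (adjusted p = 0.00074), a ratio of 47.4 per total count with an exact 95% counting interval of 8.07 to 1917. Every complex I mRNA of the heavy strand was thus called lower, mt-Nd3 among them with 7 and 13 counts against 1 and 2. mt-Atp6 went from 10.0 and 11.8 CPM to 5.17 and 4.65 CPM (-1.15), mt-Co3 from 9.94 and 10.0 CPM to 3.47 and 4.02 CPM (-1.41) and mt-Co2 from 18.1 and 24.4 CPM to 10.2 and 12.7 CPM (-0.89). mt-Co1 was called here, from 14649.6 and 16107 CPM to 8029.7 and 10069.7 CPM (-0.76 ± 0.17, adjusted p = 0.00328). The large-subunit rRNA mt-Rnr2 fell from 1742 and 1928 CPM to 705 and 658 CPM (-1.43 ± 0.16, adjusted p = 3.36e-05), while mt-Rnr1, at 524 and 584 CPM against 622 and 739.6 CPM, was not called (0.30). On the light strand, mt-Nd6 stood at 352 and 369 CPM against 266 and 267 CPM and was called at -0.44 ± 0.14 (adjusted p = 0.0209), a call that none of the 4 fits with 1 library left out kept (-0.37, adjusted p = 0.155, without normoxia replicate 2). Without the same library mt-Nd3 (adjusted p = 0.144) and mt-Co2 (-0.62, adjusted p = 0.055) also lost their calls. mt-Tp held 33 and 34 counts in normoxia and 0 in both hypoxic libraries, at least 12.3-fold lower. The tRNA mt-Tw was also called lower, and stood at -2.67 without hypoxia replicate 2, while mt-Tt was not called.

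In BV2, the members called for hypoxia moved both ways. In monoculture 2 of 17 rose and 2 fell, where 30.9% of all genes tested rose, 31% fell and 61.9% were called in all. mt-Co1 stood at 5372 and 7593 CPM in normoxia and 11573 and 8588 CPM in hypoxia, a rise of 0.64 ± 0.19 (adjusted p = 0.00714). Both hypoxic libraries lay above both normoxic ones, but without normoxia replicate 1 the difference was 0.40 (adjusted p = 0.0939). mt-Co2, at 9.9 and 15 CPM against 19.2 and 17.8 CPM, was also called higher (0.57 ± 0.19, adjusted p = 0.0162), and stood at 0.30 (adjusted p = 0.231) without the same library. mt-Nd1 stood at 3481 and 5329.5 CPM against 3708 and 3168 CPM, and mt-Cytb at 2838 and 3746 CPM against 2776 and 2534 CPM, neither of them called. The called falls were in counts on tRNA genes, which need not be mature tRNA. mt-Tp held 27 and 37 counts in normoxia and 1 and 0 in hypoxia (adjusted p = 3.24e-05), a ratio of 50.6 per total count with an exact 95% counting interval of 8.77 to 2031. mt-Tw held 18 and 20 counts against 0 and 2 (adjusted p = 0.00198), a ratio of 15 with an interval of 3.89 to 129. mt-Tt, with 20 and 24 counts against 14 and 8, was not called.

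BV2 cells from co-culture had 5 members higher and 4 lower in hypoxia, where 35.2% of all genes tested were higher, 32.1% lower and 67.3% called in all. mt-Co1 stood at 9234 and 10305 CPM in normoxia and 13018 and 16173 CPM in hypoxia (0.58, adjusted p = 0.0117). mt-Rnr1 stood at 1019.5 and 1042 CPM against 1326 and 2440.5 CPM (0.87 ± 0.21, adjusted p = 0.00164), and mt-Rnr2 at 1735 and 1646 CPM against 2103 and 3326 CPM (0.68 ± 0.19, adjusted p = 0.00438). mt-Co2 stood at 15.6 and 18.4 CPM against 23.6 and 32.1 CPM and mt-Co3 at 8.44 and 10.2 CPM against 13 and 22.2 CPM, both called higher. Replicate 2 was the higher hypoxic library for all 5 risen members. Without that library all 5 rises (mt-Rnr1, mt-Rnr2, mt-Co1, mt-Co2 and mt-Co3) lost their call, with mt-Rnr1 at 0.30 (adjusted p = 0.128). mt-Cytb fell from 4933 and 5075 CPM to 3165 and 4070.3 CPM (-0.47 ± 0.16, adjusted p = 0.0145), a call lost without hypoxia replicate 1 (-0.38, adjusted p = 0.0746). mt-Tp held 42 and 35 counts against 0 and 1 (adjusted p = 3.83e-06), a ratio of 87.8 per total count with an exact 95% counting interval of 15.3 to 3511. mt-Tw (-2.72) was lower as well, and mt-Tt (-1.03, adjusted p = 0.0417) stood at -0.58 (adjusted p = 0.385) without normoxia replicate 2.

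**Figure D2:**
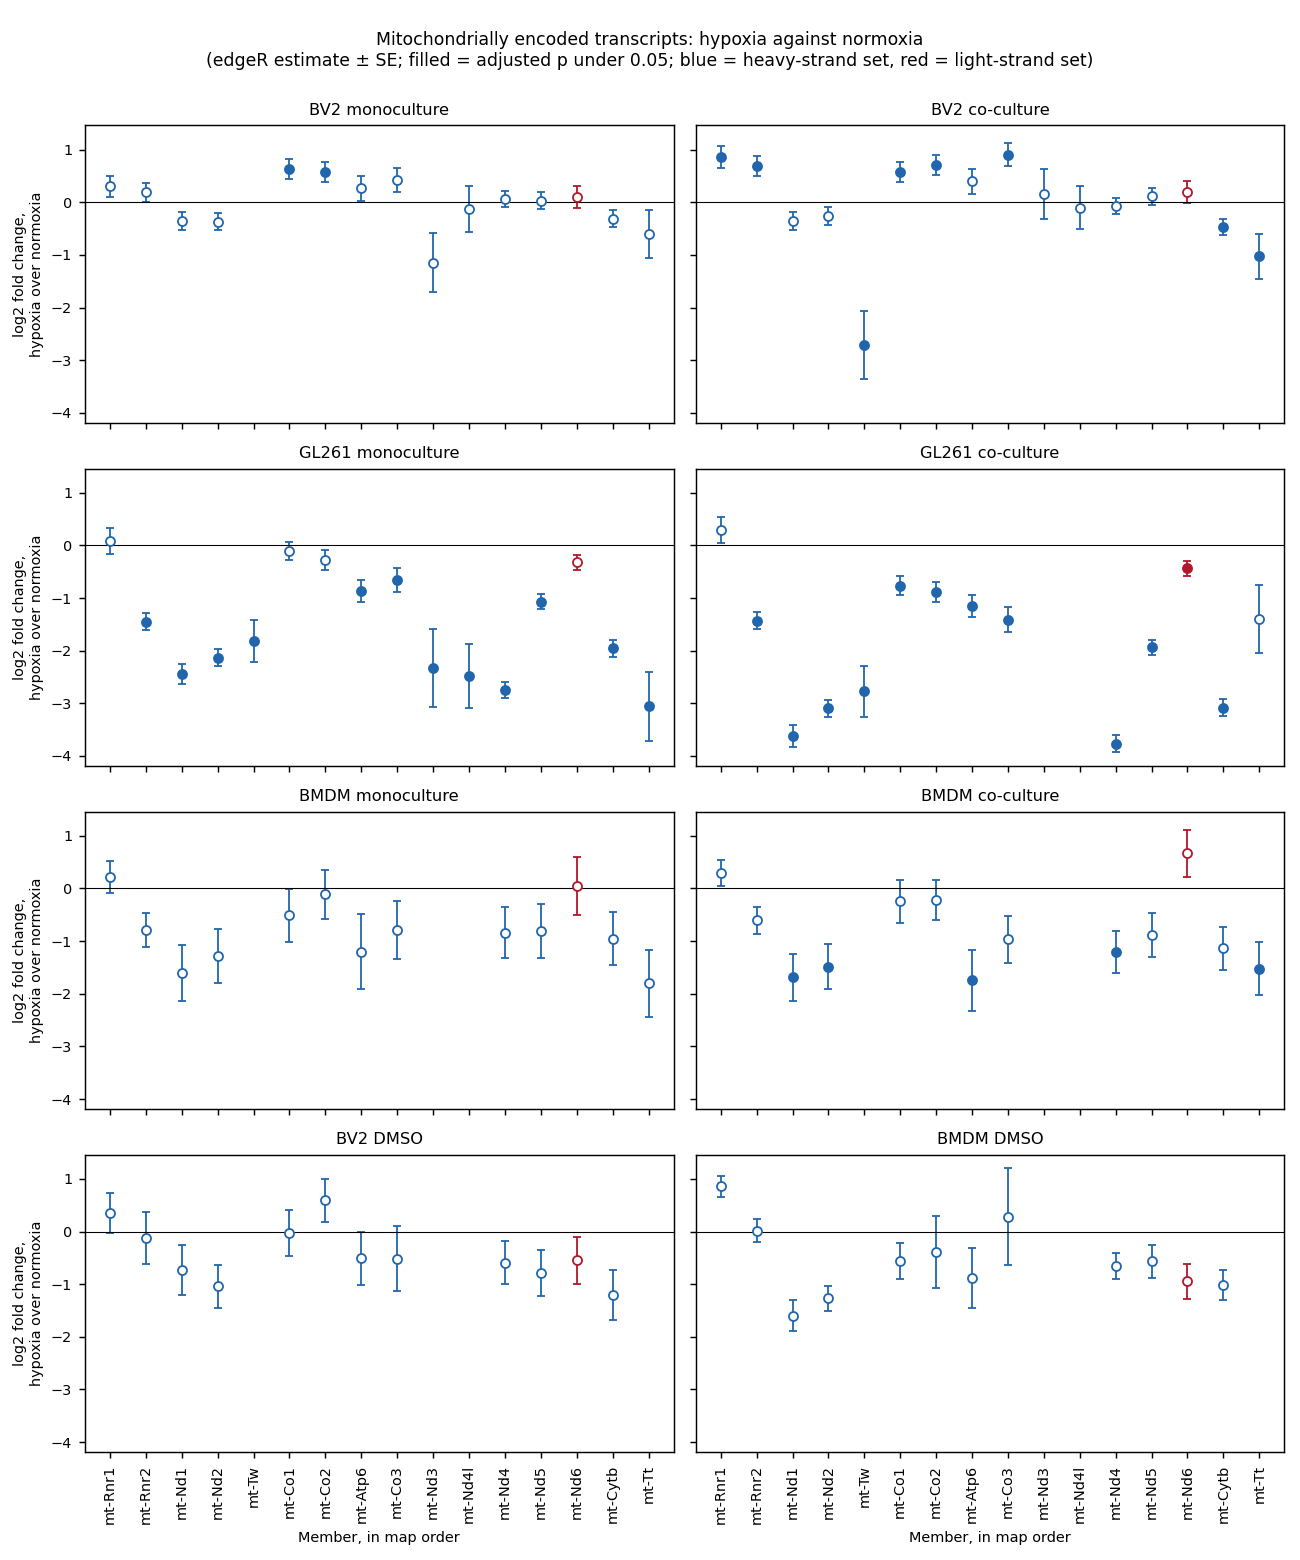
Log2 difference between hypoxia and normoxia for each measurable member in the 8 comparisons, ordered along the mitochondrial genome. Points show the fitted difference and bars its SE, with filled points for calls at an adjusted p below 0.05. Members with at most 3 hypoxic counts in a group are not drawn there. mt-Nd1, mt-Nd2 and mt-Cytb lie below 0 in all 8 comparisons and mt-Rnr1 lies above 0 in all 8.

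The difference in the hypoxia effect between the lines was tested as an interaction in one fit over the BV2 and GL261 libraries. 12 of 18 members tested were called, all with a more positive effect in BV2, where 18.7% of all genes tested were called in that direction and 37.4% in either. mt-Nd4 had the largest called difference in effect, 2.91 ± 0.21 on the log2 scale (SE, adjusted p = 3.00e-08). mt-Nd1 differed by 2.19 ± 0.28 (adjusted p = 7.54e-06) and mt-Co1 by 0.84 ± 0.27 (adjusted p = 0.02). The interaction was not called for mt-Rnr1 (0.31), mt-Nd6 (0.52, adjusted p = 0.184) or mt-Tw (-1.82, adjusted p = 0.212). Without BV2 normoxia replicate 1, 7 members were called.

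In BMDM monoculture no member passed the test for hypoxia. 0 of 13 were called by edgeR, where 23.9% of all genes tested were, although 4 had an unadjusted p below 0.05. DESeq2 called 1 member, among 3945 genes called in all. The median difference was -0.81 over the members and 0.03 over all genes. mt-Nd1 stood at 921 and 759 CPM in normoxia and 335 and 217 CPM in hypoxia, with no overlap and a log2 difference of -1.61 (adjusted p = 0.0517). mt-Co1 stood at 4519.9 and 3590.4 CPM against 3262 and 2428 CPM, also without overlap and not called. With only the 4 monoculture libraries in the fit, 8 members were called, and the share over all genes was not counted for that fit.

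BMDM from co-culture with GL261 had 5 of 13 members lower in hypoxia and none higher, where 17.3% of all genes tested were lower and 34.8% called. mt-Nd1 stood at 916, 1090.2 and 2527 CPM in normoxic replicates 1 to 3 and at 344, 275 and 786 CPM in the hypoxic ones, a log2 difference of -1.69 ± 0.44 (SE, adjusted p = 0.0124). mt-Nd2 stood at 558, 566 and 1187 CPM against 217, 144 and 464 CPM (-1.49 ± 0.42, adjusted p = 0.0189). mt-Nd4 stood at 611, 604 and 1133 CPM against 280.1, 179.6 and 552 CPM (-1.21 ± 0.40, adjusted p = 0.0346). Within each replicate number the hypoxic library was the lower one for all these genes, and replicate 3 was highest at both oxygen levels. mt-Atp6 held 24, 26 and 65 counts against 10, 10 and 12 (-1.74 ± 0.58, adjusted p = 0.036) and the tRNA mt-Tt 16, 10 and 12 against 4, 3 and 4 (-1.53 ± 0.51, adjusted p = 0.0364), the latter not called without hypoxia replicate 2 (adjusted p = 0.109). mt-Co1, at 4843, 5814 and 11127 CPM against 4733, 3232 and 10455 CPM, had overlapping groups and was not called. With the replicate number as a block, 9 members were lower, including mt-Cytb (-1.24 ± 0.18, adjusted p = 0.000525) and mt-Nd5 (-1.04 ± 0.22, adjusted p = 0.00449), and mt-Nd1 was at -1.71 (adjusted p = 6.98e-05). With the block and only the co-culture libraries, an alternative chosen after seeing the data, 7 were lower. The share over all genes was not counted for either blocked fit. Without the block, no member was called when normoxia replicate 3 was left out, with mt-Nd1 at -1.10 (adjusted p = 0.055), and 3 were called without hypoxia replicate 1 or 2. That library also carried the most RNA of the partner cell in its group, 3.69% by an estimate from partner-specific genes against 1.27% and 2.2% in replicates 1 and 2, and the part of that in the result was not tested.

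The DMSO libraries repeated the oxygen comparison in a separate experiment. In BV2 with DMSO, 0 of 12 members were called by edgeR, where 37.5% of all genes tested were, and 2 had an unadjusted p below 0.05. DESeq2 called 1 member, among 4784 genes called in all. mt-Nd1 stood at 1805 and 834 CPM in normoxia and 1117 and 474 CPM in hypoxia, and its groups overlapped. Without normoxia replicate 2 or hypoxia replicate 1, 3 members were called, and without normoxia replicate 1, 1 was. In BMDM with DMSO, 0 of 12 were called by edgeR, where 0.483% of all genes tested were, and 6 had an unadjusted p below 0.05. DESeq2 called 4 members, among 2078 genes called in all. There mt-Nd1 stood at 564 and 569 CPM in normoxia and 175 and 199 CPM in hypoxia (-1.60, adjusted p = 0.0729). mt-Rnr1 stood at 50.6 and 55.2 CPM in normoxia and 97.4 and 94.6 CPM in hypoxia (0.86 ± 0.20, adjusted p = 0.0862). Neither pair of groups overlapped, and the 2 genes lay in opposite directions. The summed level of the 9 macrophage markers was 7699.97 and 5561 CPM in these normoxic libraries and 2299.7 and 3736 CPM in the hypoxic ones, and its part in the values above was not tested.

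Over the 8 comparisons of hypoxia with normoxia, the estimates of mt-Nd1, mt-Nd2 and mt-Cytb were below 0 in all 8 and called lower in 3 each. Those of mt-Rnr1 were above 0 in all 8 and called in 1. How many of all genes kept a single direction in all 8 was not counted. Monoculture and co-culture of a cell type are separate libraries, but the fits pool their spread.

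Members of one strand were next compared with each other, by fitting each count relative to the geometric mean of the measurable heavy-strand mRNAs of its own library. Each of these mRNAs is thus part of its own reference. The reference weighed 11 mRNAs equally in BV2 and GL261 and 9 in the other fits. Members uncertain because of copies were among them: mt-Co2, mt-Atp6 and mt-Co3 in every fit, mt-Nd3 and mt-Nd4l in BV2 and GL261. In hypoxic GL261 co-culture mt-Nd4l held 0 to 1 counts and mt-Nd3 1 to 2, which lowers the reference and raises all relative values there. In GL261 monoculture hypoxia 7 members rose and 5 fell on this relative scale, where 84.4% of all genes were called, 83.8% higher and 0.586% lower. The reference itself fell, and the median over all genes was 1.54. mt-Co1 rose by 1.48 ± 0.19 relative to the heavy-strand mRNAs (adjusted p = 1.38e-08) and mt-Rnr1 by 1.69 ± 0.22 (adjusted p = 1.68e-08), while mt-Nd4 fell by 1.18 ± 0.17 (adjusted p = 2.62e-07) and mt-Nd1 by 0.87 ± 0.18 (adjusted p = 4.82e-05). The light-strand mRNA mt-Nd6 rose by 1.27 ± 0.18 (adjusted p = 9.22e-08). In GL261 co-culture 8 rose and 6 fell, where 92.6% of all genes were called, 92.4% higher and 0.217% lower. mt-Co1 was at 1.69 ± 0.19 (adjusted p = 5.69e-10), mt-Rnr1 at 2.75 ± 0.22 (adjusted p = 4.23e-13) and mt-Nd6 at 2.01 ± 0.18 (adjusted p = 4.16e-12), with mt-Nd4 at -1.32 ± 0.17 (adjusted p = 2.19e-08). mt-Nd5 was called higher in both (0.50 and 0.51) but turned to -0.0598 and -0.25, not called, when the reference was the summed count instead. The summed count leaned on mt-Co1, which held 59.2 to 62.9% of mitochondrial counts in hypoxic monoculture and 63.7 to 69% in hypoxic co-culture. mt-Cytb was called lower in both (-0.38 and -0.64), and lost the call at -0.12 and -0.20 with a reference of mRNAs that share under 5% of their words with a copy. That reference held only mt-Nd1, mt-Nd5 and mt-Cytb itself, which pulls the value of mt-Cytb towards 0, so the lost call decides nothing.

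**Figure D3:**
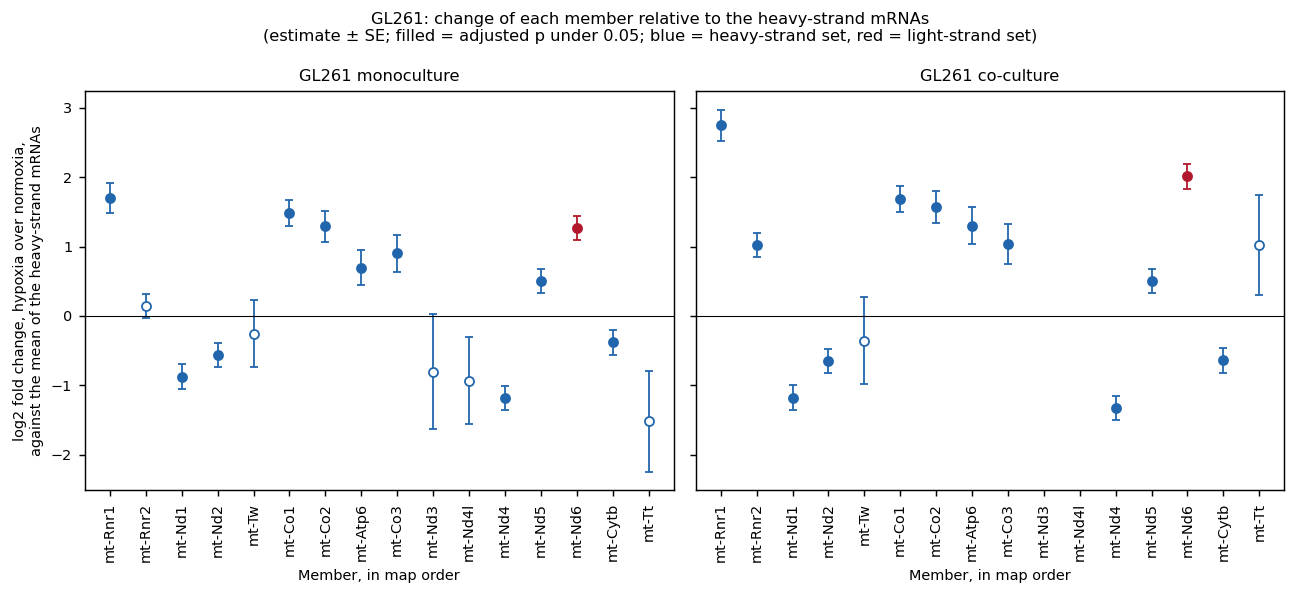
Log2 difference between hypoxia and normoxia in GL261 relative to the heavy-strand mRNAs of the same library, for each measurable member in monoculture and co-culture, with SE bars and without members that had at most 3 hypoxic counts. mt-Rnr1, mt-Co1 and mt-Nd6 lie above 0 and mt-Nd1, mt-Nd2, mt-Nd4 and mt-Cytb below 0 in both cultures.

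The other cells gave fewer relative differences. In BV2 monoculture mt-Co1 rose by 0.65 ± 0.28 (adjusted p = 0.047) and the tRNAs mt-Tw and mt-Tp fell, where 39.9% of all genes were called (20.1% higher and 19.7% lower). In BV2 co-culture mt-Rnr1 (0.68, adjusted p = 0.0477) and mt-Co3 (0.74, adjusted p = 0.0435) rose and the same pair of tRNAs fell, where 46.5% were called (21.3% higher and 25.2% lower), and 2 members were called without hypoxia replicate 2 or without normoxia replicate 1. BMDM monoculture had 0 calls by edgeR, against 9.36% of all genes, and 0 members with an unadjusted p below 0.05. BMDM co-culture, with overlapping CPM for both (mt-Rnr1 292, 363 and 527 against 367, 433 and 644, mt-Nd6 98.6, 85.5 and 173 against 225, 62.8 and 278), had mt-Rnr1 (1.42 ± 0.56, adjusted p = 0.0375) and mt-Nd6 (1.64 ± 0.57, adjusted p = 0.0185) higher, against 35.2% of all genes (35% higher), with 0 calls without normoxia replicate 2 or hypoxia replicate 1 and 1 call without normoxia replicate 1, normoxia replicate 3 or hypoxia replicate 2. With the replicate block 5 rose, mt-Co1 among them (0.76 ± 0.20, adjusted p = 0.00105), and 2 fell, mt-Nd1 (-0.61 ± 0.22, adjusted p = 0.0127) and mt-Nd2. With the block and only the co-culture libraries, 4 rose and none fell. The share over all genes was not counted for these blocked fits. BV2 with DMSO had 0 calls against 4.09% and 0 unadjusted. BMDM with DMSO had 1, mt-Rnr1 at 1.67 ± 0.40 (adjusted p = 0.0253), against 15.2% of all genes (14.4% higher), a call lost without either normoxic library or hypoxia replicate 1. DESeq2 was not run on this relative scale.

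The ratio of mt-Co1 to mt-Nd1 within a library, per kilobase, needs no scaling between libraries. Its absolute size depends on how many reads of the shared stretches of mt-Co1 were counted, so it was compared only between libraries. In GL261 monoculture it was 1.27 and 1.41 in normoxia and 5.52 and 8.58 in hypoxia, and in GL261 co-culture 1.5 and 1.63 against 9.01 and 14.2. In BV2 monoculture it was 0.956 and 0.882 against 1.93 and 1.68, and in BV2 co-culture 1.01 and 1.05 against 1.92 and 2. The hypoxic libraries lay above the normoxic ones in each. BMDM monoculture gave 3.04 and 2.93 against 6.02 and 6.94, and BMDM co-culture 3.28, 3.3 and 2.73 against 8.53, 7.27 and 8.24. With DMSO the ratio was 1.48 and 1.25 against 2.07 and 2.8 in BV2, and 3.7 and 3.11 against 7.68 and 6.43 in BMDM. In all 8 comparisons every hypoxic library exceeded every normoxic library. An exact two-sided permutation test cannot go below 0.333 with 2 against 2 libraries or below 0.1 with 3 against 3, and BMDM co-culture gave p = 0.1, so no single comparison could pass.

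**Figure D4:**
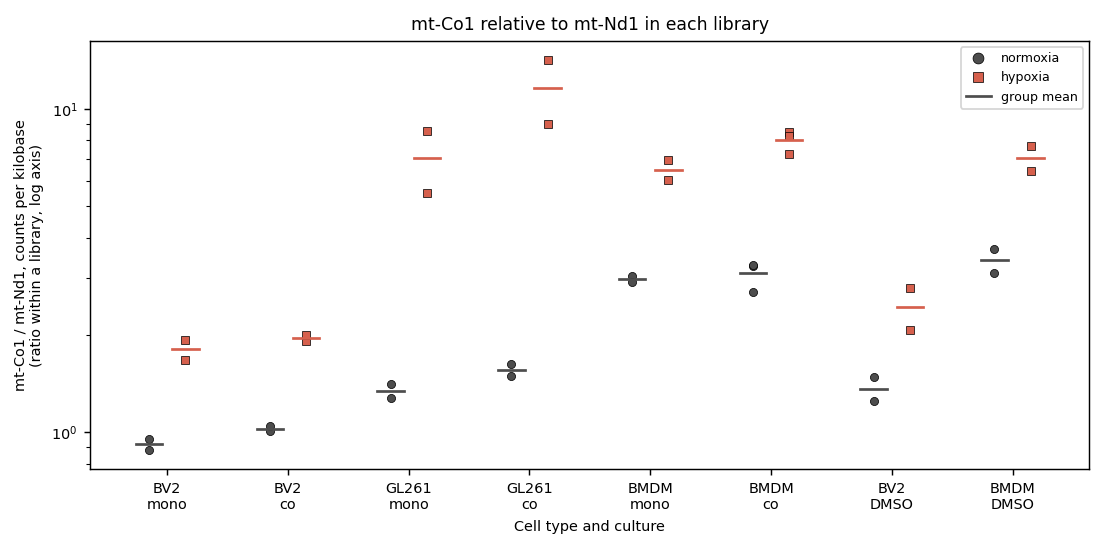
Ratio of mt-Co1 to mt-Nd1 counts per kilobase in each library (points, log axis) with the group mean (line), in normoxia and hypoxia for 8 cultures. Hypoxic points lie above all normoxic points of the same culture in each of the 8, and the widest gap is in GL261.

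Other ratios were less uniform, and the absolute size of those with mt-Co1 or mt-Nd4 is limited in the same way by shared stretches. mt-Co1 to mt-Cytb and mt-Rnr2 to mt-Nd1 were also higher in every hypoxic library in all 8 comparisons, mt-Nd5 to mt-Nd1 in 7 with 1 overlap, and mt-Rnr1 to mt-Rnr2 in 5 with 3 overlaps. The ratio of mt-Nd5 to mt-Nd4, neighbours in the last part of the heavy-strand genes, was higher in hypoxia in 4, lower in 1 and overlapping in 3. Its widest change was in GL261, where it went from 1.08 and 1.09 to 3.27 and 3.68 in monoculture and from 1.2 and 1.21 to 4.6 and 4 in co-culture. In BV2 monoculture it was 1.46 to 1.52 in normoxia and 1.45 to 1.47 in hypoxia. The ratio of mt-Nd6 to mt-Nd5 was higher in 5, lower in 1 and overlapping in 2.

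The share of all counts on mitochondrial genes summed these patterns. In GL261 it went from 3.85 and 3.96% to 1.76 and 2.02% in monoculture and from 3.97 and 4.25% to 1.18 and 1.43% in co-culture, with no overlap. In BV2 monoculture it was 1.9 and 2.72% in normoxia and 2.62 and 2.21% in hypoxia, overlapping. BMDM monoculture went from 1.12 and 0.877% to 0.6 and 0.407%. BMDM co-culture stood at 1.14, 1.28 and 2.44% in normoxia and 0.779, 0.544 and 1.73% in hypoxia, overlapping. Meanwhile mt-Co1 alone went from 32.4 to 33.2% of the mitochondrial counts in normoxic GL261 monoculture to 59.2 to 62.9% in hypoxia, and reached 63.7 to 69% in hypoxic GL261 co-culture.

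**Figure D5:**
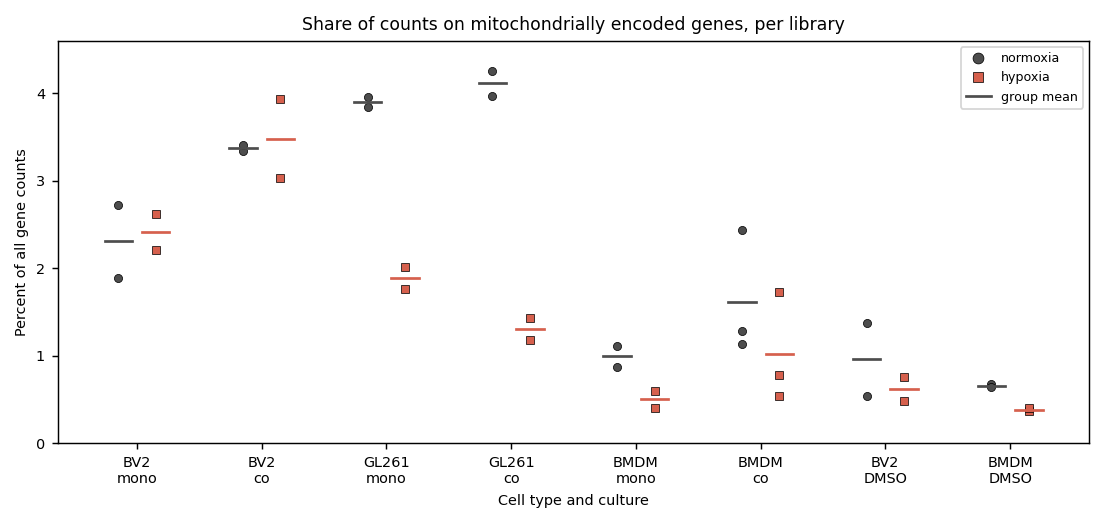
Percent of all gene counts on the 37 mitochondrial genes in each library (points) with the group mean (line), in normoxia and hypoxia for 8 cultures. GL261 has the highest normoxic shares, 3.85 to 4.25%, and in hypoxia falls to 1.18 to 2.02%, while the BV2 groups overlap.

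Co-culture was compared with monoculture at each oxygen level. In normoxic BV2 4 members were higher in co-culture and none lower, where 5.77% of all genes were higher and 14.9% called: mt-Nd6 (1.03, adjusted p = 0.00568), mt-Cytb (0.60, adjusted p = 0.017), mt-Co1 (0.59, adjusted p = 0.0423) and mt-Nd4 (0.50, adjusted p = 0.0306). mt-Nd6 stood at 130.2 and 182 CPM in monoculture and 379 and 259 CPM in co-culture. No member was called without co-culture replicate 1, where mt-Nd6 stood at 0.73 (adjusted p = 0.0628), and 1 was without monoculture replicate 1 or co-culture replicate 2. In hypoxic BV2 6 were higher, where 8.13% of all genes were higher and 15.7% called, led by mt-Nd6 (1.12 ± 0.21, adjusted p = 0.0017) at 206 and 130.1 CPM in monoculture and 326 and 404 CPM in co-culture. Without co-culture replicate 2, 1 member was called, and without monoculture replicate 2, 2 were. RNA of the partner cell was estimated at 0.568 to 0.953% of these normoxic and 2.06 to 2.36% of these hypoxic co-culture libraries, and its part was not tested.

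In GL261, co-culture with BV2 called 0 members in normoxia by edgeR, where 0.514% of all genes were called, with 0 unadjusted and 0 by DESeq2. In hypoxia 5 members were lower in co-culture and none higher, where 0.5% of all genes were lower and 1.39% called. mt-Cytb stood at 1761 and 1833 CPM in monoculture and 775 and 884 CPM in co-culture (-1.12 ± 0.15, adjusted p = 0.00519). mt-Nd1 (-1.08), mt-Nd4 (-1.07), mt-Nd2 (-1.01) and mt-Nd5 (-0.76) were the others, and for each the co-culture libraries lay below the monoculture ones. Without co-culture replicate 1, 1 member was called, with mt-Cytb at -1.02 (adjusted p = 0.0534), and without co-culture replicate 2, 2 were. Partner RNA was estimated at 0.207 to 0.254% of the hypoxic co-culture libraries. Whether hypoxia acted differently in co-culture was tested as an interaction, which called 0 members by edgeR, against 0% of all genes. Still, 8 members had an unadjusted p below 0.05, and DESeq2 called 5, among 47 genes called in all. mt-Cytb had an interaction of -1.13 ± 0.21 (adjusted p = 0.344) and mt-Nd1 of -1.17 ± 0.26 (adjusted p = 0.354).

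In BMDM, mt-Rnr1 was higher in co-culture with GL261 than alone in normoxia (1.33 ± 0.29, adjusted p = 0.0489), from 173 and 141 CPM to 292, 363 and 527 CPM, where 1.57% of all genes were higher and 1.64% called. In hypoxia mt-Rnr1 (1.40 ± 0.29, adjusted p = 0.0202) and mt-Rnr2 (1.16 ± 0.30, adjusted p = 0.045) were higher, where 4.06% of all genes were higher and 7.11% called. mt-Rnr1 then stood at 161 and 203 CPM in monoculture and 367, 433 and 644 CPM in co-culture. Both groups were separate for each. The normoxic call was lost without either monoculture library or co-culture replicate 2 or 3 (adjusted p = 0.425 without monoculture replicate 2). Both hypoxic calls were lost without either monoculture library or co-culture replicate 3, with mt-Rnr1 at an adjusted p of 0.172 without monoculture replicate 1 and mt-Rnr2 at 0.26 without monoculture replicate 2. Partner RNA was estimated at 1.27 to 3.69% of normoxic and 1.69 to 6.38% of hypoxic co-culture libraries. The interactions of hypoxia with co-culture called 0 members in BV2 (2.19% of all genes) and 0 in BMDM (0%), with 0 unadjusted and 0 by DESeq2 in both.

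Panobinostat was compared with DMSO in hypoxia. In BV2 0 of 12 members were called by edgeR, where 14.6% of all genes were, with 1 unadjusted p below 0.05. DESeq2 called 1 member, among 2101 genes called in all. The lowest p belonged to mt-Rnr1, at 376 and 417 CPM with DMSO and 237 and 181 CPM with panobinostat (-0.92 ± 0.38, adjusted p = 0.13). mt-Co1 stood at 3731 and 2144 CPM against 3728 and 2889 CPM, overlapping. In BMDM 0 were called, against 0% of all genes, with 0 unadjusted and 0 by DESeq2, and mt-Nd1 stood at 175 and 199 CPM against 162 and 238 CPM. Since edgeR called no gene at all here, the absence of a call by it says nothing about the members. DESeq2 called 2023 genes in this comparison. Relative to the heavy-strand mRNAs, panobinostat gave 0 calls in BV2 (0.534% of all genes, 1 unadjusted) and 0 in BMDM (3.2%, 0 unadjusted). The mt-Co1 to mt-Nd1 ratio with panobinostat was 1.86 and 2.68 in BV2 and 7.51 and 6.14 in BMDM, within or near the range of the hypoxic DMSO libraries. The macrophage markers summed to 611 and 1739 CPM in the BMDM panobinostat libraries. Neither the hypoxia effect with DMSO (0.664% of all genes) nor the panobinostat effect (0.0251%) differed detectably between BV2 and BMDM for any member in the interaction tests, with 0 called by edgeR, 0 unadjusted and 0 by DESeq2 in both.

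The nuclear genes that act on mitochondrial DNA and RNA were read from a list of 54 (transcription, replication, processing, stability and biogenesis). In hypoxic BV2 monoculture 33 fell and 6 rose, in BMDM monoculture 14 fell and 1 rose, and in GL261 monoculture 8 fell and 16 rose, with medians of -0.66, -0.48 and 0.10. The same shares over all genes tested were 31% lower and 30.9% higher in BV2, 10.6% and 13.3% in BMDM, and 21.4% and 23.2% in GL261. Among the 19 RNA processing genes 14 fell and 3 rose in BV2, while 2 fell and 9 rose in GL261. Fastkd1, of the FASTK family of mitochondrial RNA-binding proteins, fell in each line: by 2.38 ± 0.16 in BV2 (adjusted p = 5.63e-09), 1.26 ± 0.22 in GL261 (adjusted p = 0.000962) and 1.24 ± 0.29 in BMDM (adjusted p = 0.0106). Trit1, which modifies tRNAs, was the largest rise in GL261 (1.55 ± 0.14, adjusted p = 1.53e-05).

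The difference between cell types was not tested for the genes that follow. Polrmt, the mitochondrial RNA polymerase, fell in BV2 (-0.83, adjusted p = 5.26e-05) and BMDM (-0.84, adjusted p = 0.00243) and stood at 0.11 in GL261 (adjusted p = 0.524). Tfam, which packages mitochondrial DNA and starts transcription, fell in BV2 (-0.67, adjusted p = 0.000186) and was not called in GL261 (-0.18) or BMDM (-0.58). Slirp, which with Lrpprc stabilises mitochondrial mRNAs, fell in BV2 (-1.53), GL261 (-1.14) and BMDM (-0.70). Lrpprc itself fell in BV2 (-0.61) and BMDM (-0.51, adjusted p = 0.0481) and stood at 0.19 in GL261 (adjusted p = 0.231). Mtpap, the mitochondrial poly(A) polymerase, fell in BV2 (-0.49, adjusted p = 0.00243), rose in GL261 (0.80, adjusted p = 0.00142) and was not called in BMDM (0.21). Pnpt1, a mitochondrial RNA exonuclease, fell in BV2 (-1.09) and BMDM (-1.02) and was not called in GL261 (-0.13). By the same rule, Ppargc1b (-1.84) and Mrpl12 (-1.75) were among the largest falls in BV2 and Myc (2.42), Ppargc1a (1.19) and Primpol (0.55) its largest rises. Rexo2 (-1.18) was the second largest fall in GL261, with Mrm3 (1.03) and Supv3l1 (0.97) among its rises, and in BMDM Rpusd3 (-1.63) and Mrm3 (-1.19) fell and Mrm1 (1.03) rose.

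The nuclear-encoded partners of the members, 74 subunits of complexes I, III and IV and the ATP synthase, were counted in the same comparisons. In hypoxic GL261 monoculture 54 of the 72 tested fell and none rose (median -0.75), and in co-culture 63 fell (median -1.14), where 21.4% and 25.6% of all genes tested fell. In BV2 monoculture 58 of 72 fell and 2 rose (median -0.55), where 31% of all genes fell, and in BMDM monoculture 12 of 73 fell and 3 rose (median -0.32), where 10.6% fell. Of the 12 mitochondrially encoded mRNAs tested, 9 fell and none rose in GL261 monoculture, and none fell and 2 rose in BV2 monoculture, beside the same shares over all genes.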

How the data were processed

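Poly(A) RNA of 38 libraries was sequenced as stranded libraries of paired 151-base reads, per the labels' protocols. The submitters' processing notes name Trimmomatic 0.36, STAR 2.6, SAMtools, HTSeq 0.9.1, deepTools, Picard 2.17.1 for some samples and the mm10 build. The authors deposited gene counts, not normalized, in 3 tables; the counting mode, its strand setting and the annotation release are not given in the sources used here. Paired reads without molecular identifiers are not independent molecules, so the 3-count floors cover counting error only.

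Genes were matched to GENCODE M21 by Ensembl ID. Copies were searched as shared 75-base words among annotated transcripts, since no genome sequence was used. Each cell type and experiment was fitted with edgeR 4.0.16 (TMM scaling, filterByExpr with a minimum count of 10 and a minimum total of 15, quasi-likelihood test, Benjamini-Hochberg adjustment over all genes, threshold 0.05) in R 4.3.3. SE is the absolute log2 difference divided by the square root of F. Relative fits took as library size the geometric mean count, plus 0.5, of the heavy-strand mRNAs that passed the filter. Partner RNA was estimated from genes whose level in the partner's monoculture reached 20 CPM and was 100-fold that of the cell itself. DESeq2 1.42.0, other scalings, no filter, other samples in the fit, other references, a replicate block and leaving out each library were alternatives. Scripts were tested on simulated data.

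The members and lists were chosen with earlier results of these data known. Any member that passed the filter could be named. Values per library are given for mRNAs and rRNAs called for hypoxia, and tRNAs with at least 10 counts in every library of a group were given by value. Nuclear copies sharing at least 5% of a member could be named. Of the mitochondrial expression genes, the 3 largest called rises and falls per monoculture were named, with Polrmt, Tfam, Lrpprc, Slirp, Mtpap and Pnpt1. Same-numbered BMDM co-culture libraries deviated together in all 3 pairs (correlation at least 0.244), so the blocked value stands beside that result. Elsewhere a comparison has 2 pairs only. Ratios against 1 to 3 hypoxic counts are of summed counts per total count, with Clopper-Pearson intervals that cover counting error only.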

Additional observations from a re-analysis of the deposited data

Results flagged for a closer look

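The effect of hypoxia in monoculture differed between BV2 and GL261 for 12 members, by edgeR's test of the interaction itself with Benjamini-Hochberg adjustment. All 12 differences (log2, BV2 minus GL261) were above 0. Among complex I subunits they were 2.91 for mt-Nd4, 2.46 for mt-Nd4l, 2.19 for mt-Nd1, 1.87 for mt-Nd2 and 1.20 for mt-Nd5. For mt-Cytb of complex III the difference was 1.75. The cytochrome c oxidase subunits differed by 0.84 (mt-Co1), 0.95 (mt-Co2) and 1.17 (mt-Co3), and the ATP synthase subunit mt-Atp6 by 1.23. The rRNA mt-Rnr2 differed by 1.73 and the tRNA mt-Tt by 2.55. DESeq2 called the same 12, among 6163 genes called in all. Values of mt-Nd4l, mt-Co2, mt-Co3 and mt-Atp6 are uncertain because of their nuclear copies.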

How the results depend on the processing

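Over the members named as called, the direction and call were kept in 46 of 46 under plain library totals, 63 of 64 under DESeq2 size factors within edgeR, 54 of 64 under DESeq2, 95 of 100 with no filter, 41 of 44 with only the groups compared, 27 of 36 with the summed reference and 32 of 36 with the reference of unshared mRNAs. The cause of the changes below was not tested. Apart from DESeq2, calls over all genes were not counted for the alternatives, so their numbers of members stand without that share.

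With no filter on low counts, the number of members called for hypoxia was 10 in BV2 monoculture, 6 in BMDM monoculture, 8 in BMDM co-culture, 4 in BV2 with DMSO and 3 in BMDM with DMSO. It was 10 and 11 for BV2 co-culture against monoculture in normoxia and hypoxia, 5 and 5 for BMDM, 2 for panobinostat in BV2, 5 for the interaction of hypoxia with co-culture in GL261, 5 for the level in BV2 against BMDM, and 1 for BMDM co-culture on the relative scale. DESeq2 called 1 member for hypoxia in BMDM monoculture, 3 in BMDM co-culture, 1 in BV2 with DMSO and 4 in BMDM with DMSO, 2 for BMDM co-culture in normoxia, 1 for panobinostat in BV2 and 5 for the GL261 interaction. Over all genes it called 3945, 5244, 4784, 2078, 600, 2101 and 47 in the same order. With DESeq2 size factors in edgeR, 0 were called for BMDM co-culture in normoxia. Plain totals and totals without mitochondrial counts each called 3 for hypoxia in BMDM monoculture and 2 in BV2 with DMSO. With only the groups compared, 8 were called in BMDM monoculture and 2 in BMDM co-culture.

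With the replicate block, hypoxia calls were 6 in BMDM monoculture, 9 in BMDM co-culture, 4 in BV2 with DMSO and 3 in BMDM with DMSO, and 5 for panobinostat in BV2. On the relative scale the block gave 3 in BMDM monoculture, 7 in BMDM co-culture, 2 in BV2 with DMSO and 2 for panobinostat in BV2. It kept all 100 single-member calls made without it and their direction, so the higher numbers above come from added members. Outside BMDM co-culture 2 numbers are shared, and the labels tie them to no common culture or day, so they do not pair the libraries here. Same-numbered DMSO libraries nevertheless deviated together between oxygen levels (correlation 0.389 in BV2 and 0.409 in BMDM). The correlation between hypoxic DMSO and panobinostat libraries was 0.364 in BV2 and 0.593 in BMDM. Between hypoxic GL261 monoculture and co-culture it was 0.369. Chosen after seeing the data, the block with only the groups compared gave 4 for BMDM co-culture on the relative scale.

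With the summed reference, mt-Nd5 turned from higher to -0.0598 in GL261 monoculture and -0.25 in GL261 co-culture, and BMDM co-culture had 0 calls. With the unshared reference, BV2 co-culture had 7 and BMDM with DMSO had 2.

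Leaving out single libraries, hypoxia calls ranged from 5 to 8 in BV2 co-culture, 0 to 6 in BMDM co-culture and 0 to 3 in BV2 with DMSO, and stayed at 11 to 14 in GL261 monoculture and 13 to 15 in GL261 co-culture. Calls for co-culture ranged from 0 to 6 in BV2 normoxia, 1 to 9 in BV2 hypoxia, 1 to 5 in GL261 hypoxia, 0 to 1 in BMDM normoxia and 0 to 2 in BMDM hypoxia. The range was 7 to 13 for the BV2 and GL261 interaction, 0 to 1 for that of hypoxia with co-culture in BV2, 5 to 10 for the level in BV2 against GL261 and 1 to 5 against BMDM. On the relative scale it was 2 to 4 in BV2 co-culture, 0 to 2 in BMDM co-culture and 0 to 1 in BMDM with DMSO. An arm with 1 library left is assumed to vary like the other groups. At this depth mt-Atp8 and the tRNAs other than mt-Tq, mt-Tw, mt-Tt and mt-Tp held too few counts to be tested.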
